A study of Mus musculus with 8 samples.

Results

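Bcor and Bcorl1 are paralogous genes on the mouse X chromosome that encode transcriptional corepressors. Their 15 KLF13 peaks, 13 at Bcor and 2 at Bcorl1, were taken from a deposited list of 9506 peaks as every line whose assigned gene symbol was Bcor or Bcorl1. The list came from HT22, an immortalised line derived from mouse hippocampal neurons, with the HT22-BirA genotype: every culture stably made BirA, a biotin ligase, and had received the pTO-Klf13Bio plasmid, which makes a KLF13 that BirA biotinylates. Chromatin was collected 24 h after transfection. In 4 ChSP libraries (chromatin streptavidin precipitation) the tagged KLF13 had been pulled down on streptavidin, and 4 input libraries were taken from the same kind of cells with no precipitation. A pulldown without tagged KLF13 is not among these libraries, so capture by streptavidin alone and KLF13 binding cannot be told apart, and KLF13 was supplied from a plasmid. The list gives 1 fold of ChSP over input and 1 p-value per peak over all 8 libraries, both computed by the authors, so no value below has a replicate error, and read depth is unknown. The genes were chosen by the peaks the list assigns to them, so the number of peaks, their folds and their p-values at these genes are a description and carry no test.

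BCOR was identified as a corepressor of BCL6, a zinc finger repressor. It is also a defining subunit of PRC1.1, a variant Polycomb repressive complex in which PCGF1 joins the ubiquitin ligases RING1 or RNF2, and KDM2B, a protein that recognises unmethylated CpG, brings the complex to CpG islands. There it adds ubiquitin to histone H2A. BCORL1 is the paralogue of BCOR, can take its place in this complex, and binds the corepressor CtBP. KLF13 is a zinc finger factor of the Sp and KLF family, whose members bind GC boxes and CACCC sequences, which are common in promoters.

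The promoters of both genes are shown because the peaks closest to them differ in where they sit. The sequences are the 250 bases before the start site in RefSeq on GRCm38.p6, for Bcor at chrX:12160356-12160605 on the minus strand and for Bcorl1 at chrX:48341108-48341357 on the plus strand. Capitals mark every match, on either strand, to GGGCGG (the GC box), CACCC or CCNCNCCC (a KLF-type site), where matches may overlap one another.
Bcor: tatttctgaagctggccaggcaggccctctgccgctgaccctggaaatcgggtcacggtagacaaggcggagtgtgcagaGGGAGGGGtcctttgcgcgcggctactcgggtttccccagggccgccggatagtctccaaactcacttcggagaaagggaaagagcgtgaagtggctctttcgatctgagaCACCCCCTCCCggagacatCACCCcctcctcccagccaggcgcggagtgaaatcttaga
Bcorl1: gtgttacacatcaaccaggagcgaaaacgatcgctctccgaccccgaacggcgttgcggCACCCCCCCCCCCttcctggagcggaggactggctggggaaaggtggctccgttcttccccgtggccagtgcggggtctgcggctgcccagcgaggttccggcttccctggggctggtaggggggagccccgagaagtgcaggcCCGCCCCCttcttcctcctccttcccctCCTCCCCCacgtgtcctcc

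The Bcor stretch held 2 matches to CACCC, 2 to CCNCNCCC and 0 to GGGCGG. The Bcorl1 stretch held 1 match to CACCC, 6 to CCNCNCCC, several of them overlapping in a run of C, and 1 to GGGCGG on the opposite strand, 41 bp before the start. Such matches are common: among 32817 promoter windows in the table, the same 250 bases held CACCC in 52.0%, CCNCNCCC in 45.9% and GGGCGG in 32.7%. The Bcorl1 peak at the start covered 57 of the 250 bases shown, those next to the start site, whereas no Bcor peak covered any of the bases shown. The closest Bcor peak ended 55 bp downstream of the start site at 12160355. The RefSeq bounds of Bcor reach 161 bp further than this start, so 161 of the bases shown for Bcor lie within them. A second RefSeq start of Bcor, 9 bp further in, has nearly the same promoter and is not printed. No sequence was read under the inner start or the intronic peaks of Bcor.

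At Bcor (ENSMUSG00000040363; minus strand, chrX:12036737-12160516, 123.8 kb) the peaks fell into 5 positions along the locus. The authors' annotation, ChIPseeker-style classes with UCSC transcript names, uses a far start at 12160355 for the long transcript and an inner start at 12080553 for shorter ones, 79.8 kb apart. It placed 2 of the 13 peaks within 1 kb of a start, 1 at 1 to 2 kb, 8 in intron 1 of the long transcript and 2 in distal intergenic DNA. Over the whole list 79.9% of peaks lay within 1 kb of a start, 3.55% in introns and 7.34% in distal intergenic DNA. Among the 228 peaks on X assigned to neither Bcor nor Bcorl1, these shares were 60.5%, 9.65% and 22.4%. Bcor thus had most of its peaks in a class that is uncommon in the list, though less so on X. A low share within 1 kb of a start was not particular to Bcor among genes with many peaks. It was 1 of 7 at Casz1, 1 of 7 at Pax2 and 3 of 7 at Zfp423, though 4 of 6 at Shank3 and at Tbx1.

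The inner start had a peak over it. This peak, at chrX:12079901-12080900, was 1000 bp wide, the widest of the 13, with a fold of 30.1 (the authors' p = 4.24e-10). A small peak of 300 bp followed it, 1653 bp inside the shorter transcripts at chrX:12078601-12078900, with the lowest fold at Bcor, 11.7 (the authors' p = 6.29e-07). At the far start the peak at chrX:12159801-12160300 was 500 bp wide, with a fold of 16.1 (the authors' p = 1.20e-06). The fold was thus higher over the inner start than beside the far start: the first was higher than 74.5% and the second higher than 23.7% of the 7599 peaks within 1 kb of a start. Without values per library, this difference has no test.

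Upstream of the inner start, and still in intron 1 of the long transcript, 4 peaks stood within 4900 bp. Going away from the inner start, the peak at chrX:12087101-12087800 (700 bp, 6.55 kb upstream) had a fold of 23.1. The peak at chrX:12088401-12088900 (500 bp) had a fold of 29.8 and that at chrX:12089601-12090100 (500 bp) a fold of 25.2. The last, at chrX:12091101-12092000 (900 bp, 10.5 kb upstream), had the highest fold of either gene, 38.9, with the authors' p = 1.79e-11. It was higher than 97.8% of the 337 intronic peaks in the list, and higher than 90.8% of all peaks. In the RefSeq gene table a long noncoding RNA gene, Gm46687, lies inside Bcor at chrX:12092486-12120142, with its nearer end 486 bp from this peak. That table gives no strand, so whether this end is a start site was not determined, and the authors' annotation assigned no peak to Gm46687.

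A further group of 4 intronic peaks lay 19.9 to 31.7 kb inside the far start, between chrX:12128301 and chrX:12140500. These were 200 to 500 bp wide. Their folds were close together: 18.6 at chrX:12128301-12128700, 18.1 at chrX:12133401-12133600, 17.2 at chrX:12135401-12135900 and 20.3 at chrX:12140001-12140500. Every one of them was below the 4 intronic peaks nearer to the inner start, whose folds began at 23.1. Between the groups 36.3 kb held no listed peak. The intronic median in the whole list was 16.7, below the folds of all 8 intronic peaks of Bcor.

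Beyond the 3′ end of Bcor, 2 intergenic peaks of 500 bp were assigned to it. The nearer, at chrX:12007001-12007500, had a fold of 23.5 and the smallest p of either gene (the authors' p = 4.14e-12). It lay 29.2 kb beyond the end of Bcor and 2.27 kb from Gm34301, a long noncoding RNA gene. The other, at chrX:11807301-11807800, had a fold of 15.4 (the authors' p = 1.28e-07). It lay 228.9 kb beyond the end of Bcor, and a small nuclear RNA gene, Gm26314, was nearer, at 42.7 kb. For both, the assignment to Bcor therefore rests on the transcript set the authors used, and by position 11 of the 13 peaks lay inside the gene.

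**Figure D1:**
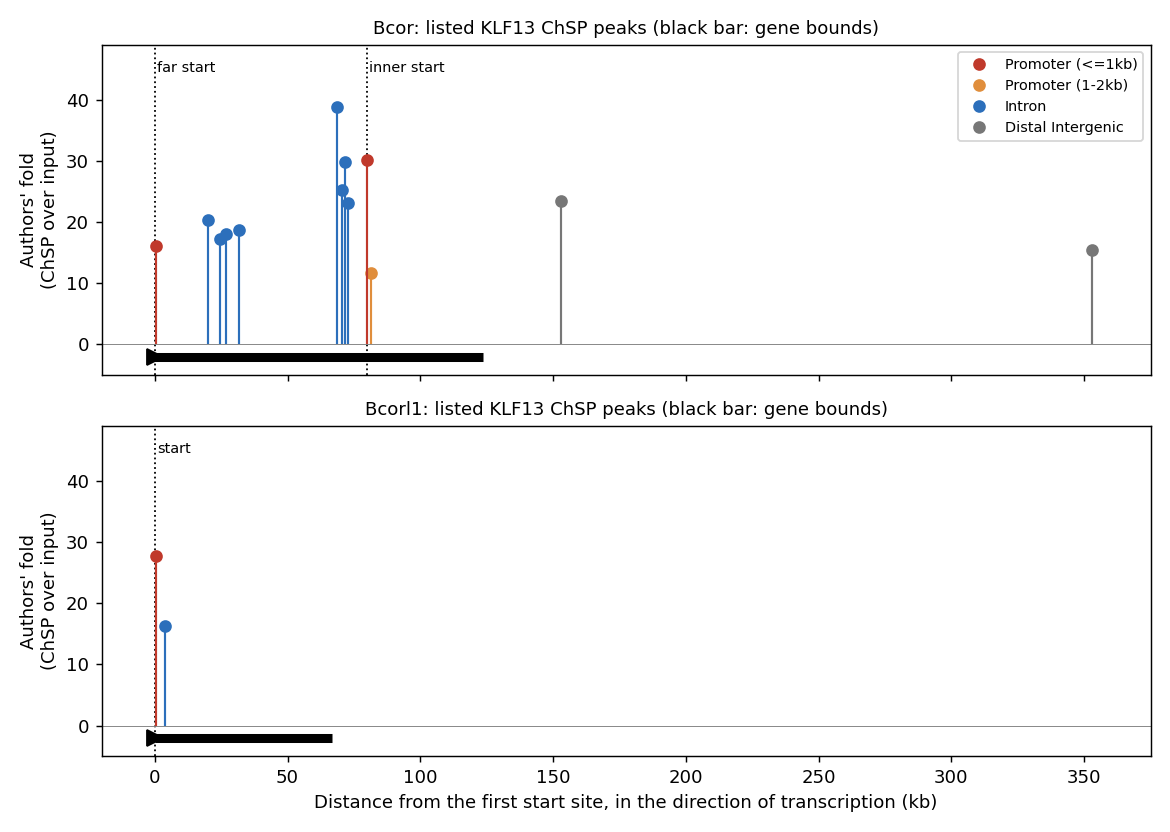
The authors' fold of each listed peak (vertical axis) against the distance of the peak's middle from the first start site in kb, in the direction of transcription, for Bcor (top) and Bcorl1 (bottom) on the same scale; colours give the annotation class, black bars the gene bounds and dotted lines the start sites. The 4 intronic peaks just before the inner start of Bcor have folds of 23.1 to 38.9, against 17.2 to 20.3 for the 4 nearer to the far start, and Bcorl1 has peaks only in its first 5 kb.

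Bcorl1 (ENSMUSG00000036959; plus strand, chrX:48341358-48408068, 66.7 kb) had 2 peaks, both near its start. The peak over the start, at chrX:48341301-48342100, was 800 bp wide with a fold of 27.7 (the authors' p = 2.01e-11), higher than 68.3% of the peaks within 1 kb of a start. The other, at chrX:48345101-48345600, was 500 bp wide and lay 3.74 kb downstream in intron 2 of 14, with a fold of 16.3 (the authors' p = 2.82e-07). The rest of the gene held no listed peak. The promoter fold of Bcorl1 lay between those at the far and inner starts of Bcor, 16.1 and 30.1.

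The surroundings of the loci also differed. After the far start of Bcor no peak was listed for 601.1 kb, up to the promoter of Med14, a Mediator subunit gene. On the other side the next peak assigned elsewhere was 142.3 kb beyond the last Bcor peak. The neighbouring genes in the table, Gm34301 and the pseudogene Gm14521, had no assigned peak. The peaks next to those of Bcorl1 lay, by the authors' annotation, over a start of the noncoding gene 9530027J09Rik, with a fold of 27.5, and over a start of Elf4, an ETS factor gene, with 36.0. This start of Elf4 lies 8.96 kb inside the RefSeq bounds of that gene.

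Across the 13 Bcor peaks the fold ran from 11.7 to 38.9 with a median of 20.3, and 6 of 13 were above the median of all listed peaks, 21.1. Widths ran from 200 to 1000 bp with a median of 500 bp, against 600 bp over the list, in steps of 100 bp. The peaks covered 7000 bp together, the largest length for any gene symbol in the list, ahead of Esp38 with 6300 bp in a single peak. Against all listed peaks together, the folds at Bcor were thus ordinary, and the number of peaks was not. Against intronic peaks alone, all 8 of its intronic folds were above the median, 16.7.

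The p-values gave another picture. Only 1 of the 13 Bcor peaks, the nearer intergenic one, ranked in the top 4753 of the list by p (p up to 5.29e-12), and neither Bcorl1 peak was. All 11 peaks inside Bcor were outside that set. The X chromosome as a whole had few such peaks: 20.2% of its 243 peaks were among them, against 50.8% on the other chromosomes. Width moves with p as well, since 15.4% of peaks 500 bp wide were among them and 85.4% of peaks 1000 bp wide. At 800 to 1000 bp, the widths of the 3 widest peaks described above, the share was 54.3% of 35 peaks on X and 81.4% of 2162 elsewhere. Annotation class moves with p too: 18.4% of the 337 intronic peaks were in the top 4753, against 56.8% of peaks within 1 kb of a start. The part of the chromosome, of width or of annotation class in the p-values at Bcor was not tested.

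**Figure D2:**
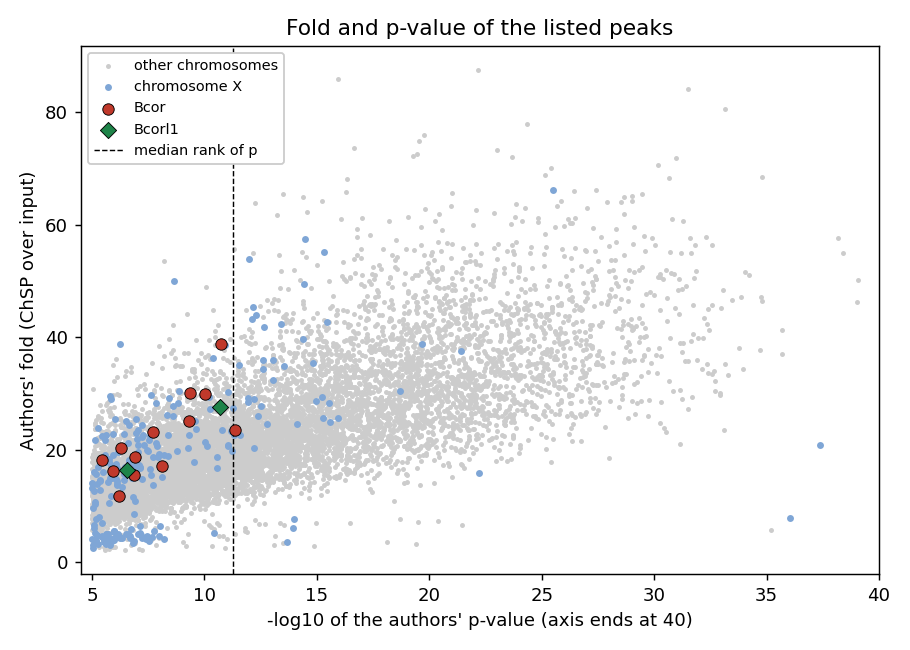
The authors' fold of the listed peaks against the negative logarithm (base 10) of the authors' p-value; grey points are peaks on other chromosomes, blue points on X, red circles Bcor and green diamonds Bcorl1, and 6 peaks lie beyond the right end of the axis. The dashed line marks the p that ranks 4753rd, and a single Bcor peak, the nearer intergenic one, lies to its right.

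In number of peaks Bcor stood near the top of the list. Of 7800 gene symbols with a peak, 6565 had 1, 15.8% had 2 or more and 0.192% (15 symbols) had 6 or more. Bcor's 13 were second to Grpr, a receptor gene also on X, with 16. The folds set them apart: Grpr's peaks had folds of 2.97 to 5.83, below the lowest at Bcor, 11.7. S100g and Rnf138rt1, with 9 and 8 peaks, lay in the same part of X as Grpr and had median folds of 4.67 and 4.70. Among genes whose median fold was at least 10, a limit set after the values were seen, the next after Bcor were Casz1, Pax2 and Zfp423, each a developmental transcription factor gene, with 7 peaks each and median folds of 23.3, 22.5 and 22.1. No other gene had 13 peaks, so none met the rule for a gene with the same number of peaks and promoter peaks as Bcor.

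Peaks were also counted by position, without the authors' assignment. Among 21900 protein-coding genes, the bounds of Bcor overlapped 11 peaks, or 8.89 per 100 kb, the largest number of any gene, followed by Sfi1 with 9 and Gse1 with 7. Per length, Sfi1 and Shank3 were denser than Bcor, with 12.6 and 8.92 per 100 kb, and genes with fewer peaks were not compared per length. The median was 1 peak over the 967 other genes of 100 to 150 kb, 37.3% of them had 0, and the highest was 6, at Ctps2. These counts took no account of fold. The 5 peaks assigned to Sfi1 had a median fold of 2.48 and the 2 assigned to Ctps2 one of 3.75, against 20.3 for the 13 of Bcor. Bcorl1, with 2 peaks inside, was closer to its size class: of 1805 other genes of 50 to 80 kb, 5.43% had 2 or more and the median was 1.

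The 6 Bcor peaks from 1653 bp downstream of the inner start to 10.5 kb upstream of it lay within 13.4 kb. This length and the number 6 were then taken as the window and the limit, so Bcor meets them by construction. Windows of that length opened at each of the 9506 peaks held 6 or more whole peaks at 6 positions: 4 overlapping windows at Sfi1, whose opening peaks had folds of 2.10 to 3.56, 1 at Tbx1, a T-box factor gene, and this one. On X, 31 listed peaks were intronic, of which 8 were in Bcor and 1 in Bcorl1. A fold of at least 10, a limit set after the values were seen, left 14 and kept all of those in Bcor and Bcorl1. The others of these 14 were assigned to Fgf13 (2), Cxcr3, Rai2 and Smim9.

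**Figure D3:**
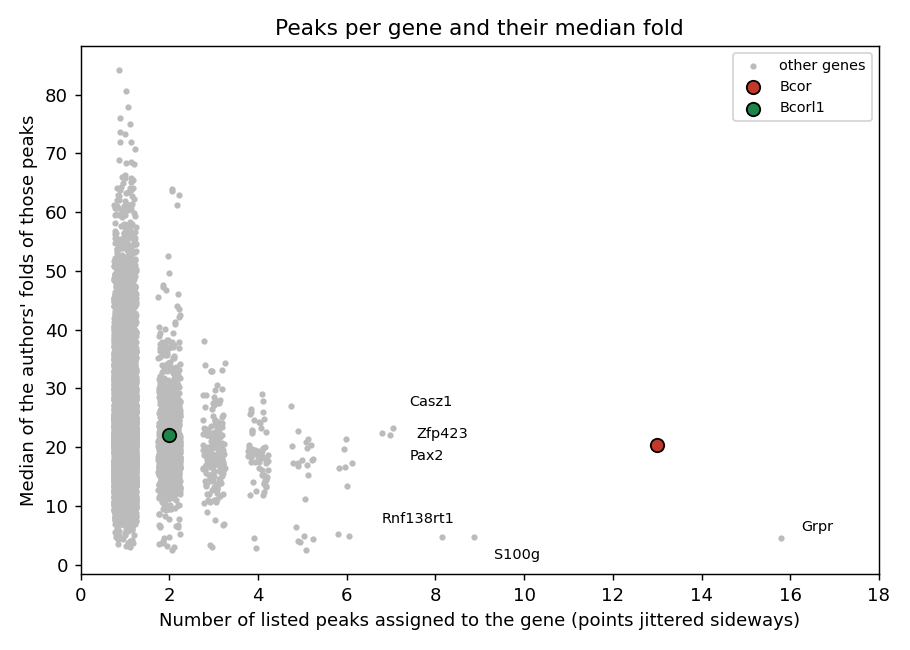
The median of the authors' folds over a gene's peaks (vertical axis) against the number of listed peaks assigned to the gene (horizontal axis, points jittered sideways); each point is a gene symbol. Bcor, in red, has 13 peaks with a median fold of 20.3, and the genes with 8, 9 and 16 peaks have median folds between 4.57 and 4.70.

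The genes for the other proteins of PRC1.1 were then described. Beside them stood lists of BCOR and BCORL1 partners, of other PRC1 subunits and of PRC2. Over all protein-coding genes, 30.9% had a peak within 1 kb of a start assigned to them (6769 of 21900; exact 95% binomial interval 30.3 to 31.5, which covers counting error only). Of the 10 PRC1.1 genes 7 had one, and without Bcor and Bcorl1, which were chosen for having peaks, 5 of 8. Peaks of different genes are not replicates, and these counts carry no test.

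In PRC1.1 the highest promoter folds were at Rybp, an adaptor that binds the ubiquitin ligase subunit, with 51.9, and at Kdm2b, the CpG-binding subunit, with 50.7. Rnf2, a ubiquitin ligase subunit, had 37.2, Usp7, a deubiquitinase, had 32.9, and Yaf2, the paralogue of Rybp, had 31.1. The best promoter folds of Bcor and Bcorl1, 30.1 and 27.7, were the lowest of the 7, with no test. All 5 of the other genes had a promoter peak among the 4753 with the smallest p, and Bcor and Bcorl1 did not. That set holds 56.8% of all peaks within 1 kb of a start, and 18.6% of protein-coding genes have such a peak in it. The 5 genes are on autosomes, and Bcor and Bcorl1 on X. Of peaks lying over a start, 36.1% of the 97 on X were in that set, against 65.7% of all 5984 in the list. None of the 5 genes had more than 2 peaks, against 13 at Bcor. Pcgf1, Ring1 and Skp1 had no assigned peak, although a peak assigned to the microRNA gene Mir219c, with a fold of 21.1, lay within 1 kb of an end of Ring1. With any listed peak within 1 kb of either gene end, whatever its assignment, 6 of the 10 genes had one. Without Bcor and Bcorl1, which were chosen for having peaks, it was 4 of 8, against 31.8% of all protein-coding genes.

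Among 10 partners of BCOR or BCORL1, 8 had a promoter peak. Ctbp1 and Ctbp2, the corepressors that BCORL1 binds, had folds of 45.0 and 33.6, and Bcl6 itself had 26.8. The nuclear receptor corepressor gene Ncor1 had 29.9. The deacetylase genes Hdac4, Hdac7 and Hdac1 had 40.4, 36.8 and 9.21, and Mllt3, a YEATS domain gene, had 25.9. Hdac5 had a peak in an exon and none assigned to it at a start, although a peak assigned to the microRNA gene Mir8101, with a fold of 27.7, lay within 1 kb of an end of Hdac5. Hdac3 had no assigned peak. No partner among these had more than 2 peaks.

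Of 13 other PRC1 genes 12 had a promoter peak, and of 11 PRC2 genes 9. Phc1 had the highest promoter fold of all these lists, 76.0, and the other PRC1 genes ranged down to 16.3 at Pcgf2. By the authors' annotation, none of the 3 peaks of Cbx8 lay within 1 kb of a start. However, 1 peak assigned to Cbx8, with a fold of 13.9, lay within 1 kb of an end of that gene. In PRC2 the folds ran from 13.9 at Phf1 to 60.0 at Jarid2, and Rbbp4 and Mtf2 had no peak. Rbbp7, also on X, had 4 peaks, the most in these 2 lists, of which the promoter peak had a fold of 17.4 and the other 3 had folds of at most 4.94. Apart from Bcor, then, no gene of the 4 lists had more than 4 peaks.

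**Figure D4:**
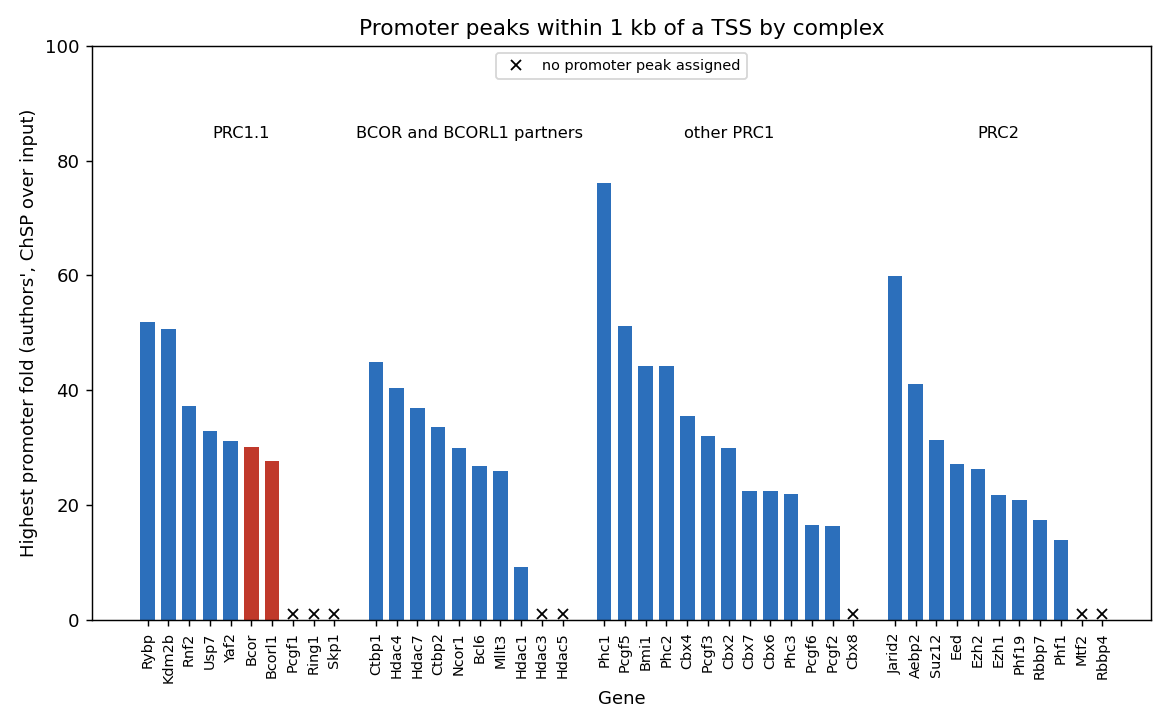
The highest fold (authors' value) among a gene's peaks within 1 kb of a start, for the genes of the 4 lists, with crosses for genes that have no assigned promoter peak; Bcor and Bcorl1 are in red. PRC1.1 has 7 of 10 genes with a promoter peak, or 5 of 8 without Bcor and Bcorl1, which were chosen for having peaks. Over all protein-coding genes the share was 30.9%. The bars of Bcor (30.1) and Bcorl1 (27.7) are the lowest of the 7.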

How the data were processed

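Sequencing reads were not used. In the deposited list each line is a peak called over all 8 libraries at once. PePr appears in its file name as the caller; for its settings, and for how libraries were scaled to each other, no label or header gives a value. Per the submitters' processing notes the tools included BWA (0.7.17-r1188), HOMER (4.9.1), ChIPseeker (1.16.1) and FastQC (0.11.3), with roles not stated, on GRCm38. The authors computed the fold, a ratio of ChSP to input on a linear scale, and the p-value of each peak. The header leaves these columns unnamed, and they were identified from their values and the caller's usual column order. The authors' score only rescales the fold, so it was left out, as was the adjusted p-value. Width and distance to a start site, in bp, are deposited columns, with edges in steps of 100 bp.

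From these columns, peaks were counted by symbol, by Entrez gene number for the lists (44 of 44 genes matched) and by overlap of at least 1 bp with gene bounds of a RefSeq table on GRCm38.p6. Promoter windows came from RefSeq on the same build. Members and lists were chosen with earlier results of these data known. The rule for named genes took the members, the 4 lists, the neighbouring genes and genes with the same number of peaks as Bcor. Others were named after their values were seen. The partner list was drawn up with a further gene, beyond the 10 counted, that is not reported here. The counting steps were tested on simulated data. The software was Python 3.11.15 with matplotlib 3.10.9, scipy 1.17.1, numpy 2.4.6 and pandas 2.3.3.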

Additional observations from a re-analysis of the deposited data

How the results depend on the processing

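No paired analysis was possible because each peak has a single value for the 8 libraries together, and for the same reason no library could be left out. Among the 4753 peaks with the smallest p, Bcor had 1 peak covering 500 bp, Bcorl1 had 0 peaks covering 0 bp, 4081 protein-coding genes had a promoter peak, and 4472 genes had at least as many peaks as Bcor, since Bcor then had 1. Merging peaks less than 1 kb apart left 11 at Bcor, and merging those at most 1 kb apart, added after seeing the data, left 9. Counted by position with 10 kb on each side, Bcor had 11. The number of genes with at least as many peaks as Bcor, itself included, was 2, 3 with peaks at most 1 kb apart merged, and 1 among genes with a median fold of at least 10, also added after seeing the data. Bcorl1 had 2 peaks under both mergings and by position. PRC1.1 genes with a promoter peak numbered 7 within 3 kb or with any assigned peak, 6 by either gene end and 5 among the smallest p. Bcor and Bcorl1, chosen for having peaks, are counted in the 7 and the 6 but not in the 5. Of all 21900 protein-coding genes, 6910 had a peak within 3 kb and 33.6% any assigned peak. A peak at either gene end was found for 31.8%, and a promoter peak among the smallest p for 18.6%. Any of the 3 motifs was in 24379 of 32817 promoter windows, and in 19264 when only the last 150 bases of each window were searched.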
